A study of Homo sapiens with 8 samples.

Results

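KMT2A and MLLT1 are the 2 genes joined by the translocation between chromosomes 11 and 19 that KOPN-8 carries, and their loci were examined in 8 lists of ATAC-seq peaks. The peaks studied are those that overlap 118250000 to 118450000 on chromosome 11, a window of 200 kb around KMT2A, or 6180000 to 6300000 on chromosome 19, a window of 120 kb around MLLT1, in hg19. Over all libraries 89 of 532743 peaks met this condition. Peaks of the 8 lists that shared at least 1 bp were merged, and the windows then held 13 and 8 of 133028 regions. All 21 regions are accounted for here.

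The lists come from 2 established human B cell precursor acute lymphoblastic leukaemia lines, 697 and KOPN-8, with 4 libraries each. In each line the 2 control libraries are from cells with an sgRNA empty vector, labelled SETD2 wild type, and the other 2 are from a clone made with an sgRNA to SETD2 and labelled as a heterozygous knockout, named BM_B for 697 and BA for KOPN-8. Each knockout arm is thus 1 clone, so clone and edit cannot be told apart. ATAC-seq uses a transposase that inserts adapters into accessible DNA, and a peak marks a stretch with more insertions than its surroundings. The study was built to compare the clones with their controls, while the comparison of 697 with KOPN-8 uses its other axis, the cell line. With 1 line of each kind, line, fusion and any other difference between 697 and KOPN-8 cannot be told apart. The libraries of a group are labelled biological replicates with no account of how cultures were separated, so p-values measure the spread between these libraries only.

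KMT2A encodes a histone H3 lysine 4 methyltransferase that keeps HOX and other developmental genes active. MLLT1, also called ENL, encodes a YEATS domain protein that binds acylated histones and recruits transcription elongation factors. In the fusion the 5′ part of KMT2A is joined to the 3′ part of MLLT1, so that the DNA-binding end of KMT2A is attached to the elongation-recruiting end of MLLT1. KMT2A breaks in leukaemia cluster near the middle of the gene. The breakpoints of KOPN-8 itself were not used here, and each gene was divided at its midpoint, 118352500 for KMT2A and 6245000 for MLLT1. KMT2A is read towards higher coordinates and MLLT1 towards lower ones, as the strands in RefSeq show. The side before the midpoint by chromosome position therefore holds the 5′ part of KMT2A and the 3′ part of MLLT1. The fusion keeps parts of these kinds, but where the KOPN-8 breaks lie relative to the midpoints was not tested. A peak pools the fragments of all copies of a locus, so the normal and the rearranged copy cannot be told apart.

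Accessibility was found around the promoter of each gene in every library, and the promoter sequence is shown for that reason. Given are the 250 bases before the gene start, 5′ to 3′ on the strand of the gene, from RefSeq in GRCh38.p14 (chr11:118436242-118436491, plus strand, for KMT2A and chr19:6279976-6280225, minus strand, for MLLT1), a build other than that of the peaks. Capitals mark CpG dinucleotides.
KMT2A: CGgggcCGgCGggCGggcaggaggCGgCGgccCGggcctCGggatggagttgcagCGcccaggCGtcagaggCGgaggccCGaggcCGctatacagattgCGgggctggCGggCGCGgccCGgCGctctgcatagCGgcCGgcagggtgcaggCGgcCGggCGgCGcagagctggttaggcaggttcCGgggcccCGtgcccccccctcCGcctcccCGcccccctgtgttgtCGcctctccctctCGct
MLLT1: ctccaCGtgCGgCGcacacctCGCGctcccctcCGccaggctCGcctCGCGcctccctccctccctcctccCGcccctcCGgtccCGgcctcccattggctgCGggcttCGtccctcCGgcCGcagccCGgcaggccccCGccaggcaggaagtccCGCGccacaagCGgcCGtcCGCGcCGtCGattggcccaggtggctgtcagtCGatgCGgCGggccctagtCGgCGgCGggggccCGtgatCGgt
The KMT2A stretch had 31 CpG dinucleotides and a GC content of 78.4%, and the MLLT1 stretch had 34 and 77.2%. Over 35116 RefSeq promoters of the same length the medians were 11 and 58%, and 10.9% of promoters held at least as many CpG dinucleotides as that of KMT2A and 6.84% as many as that of MLLT1. Motifs were searched on both strands. The GC box bound by Sp factors, GGGCGG, was found 3 times before KMT2A and 1 time before MLLT1, and 42.6% of all promoters held it. The CCAAT box bound by NF-Y was found 2 times before MLLT1 and 0 times before KMT2A, and 32% of promoters held it. CCGGAAG, bound by ETS factors, TGACGTCA, bound by CREB factors, and the consensus motifs of NRF1 and YY1 had 0 matches in either stretch, and 8.52%, 1.65%, 1.03% and 0.248% of promoters held them.

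At KMT2A the promoter was accessible in all 8 libraries, and the body of the gene held almost no peaks. The region over the gene start, on chromosome 11 from 118306580 to 118307678, was called in every library. Folds over local background are the authors' own values, read as such from a column without a header, and serve only within a list. The fold of this region was 5.58 and 4.69 in 697 control libraries, 6.0 and 6.31 in clone BM_B, 6.95 and 5.89 in the KOPN-8 controls and 6.14 and 5.68 in the KOPN-8 clone. The peak was of middling rank in both lines, between the percentiles 36.4 and 55.3 of its list in 697 and between 45.2 and 62.9 in KOPN-8. Its width was 671 to 853 bp in 697 and 718 to 1099 bp in KOPN-8. A companion region just upstream, from 118305989 to 118306482 and centred 0.8 kb before the gene start, was also called in all 8 libraries, with folds of 6.77, 5.97, 5.17 and 5.95 in 697 and 4.75, 5.61, 4.66 and 5.05 in KOPN-8.

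Beyond the promoter the next peak in any library lay 84.9 kb away, a stretch from 118307679 to 118392618 that contains the midpoint. Of all 133004 stretches between neighbouring regions of a chromosome 3.66% were as long, and the median was 10.5 kb. This stretch was taken because it holds the midpoint, and a given point falls more often in a long stretch than in a short one. The share of stretches therefore understates how often a point lies in one this long. In the 4 KOPN-8 libraries alone the empty stretch ran to 118436463, past the 3′ end of the gene, and measured 129 kb. Of the stretches between regions of KOPN-8, 4.07% were as long, a share with the same limit. The 3′ part of KMT2A thus held 0 peaks in each of the 4 KOPN-8 libraries. In 697 the 2 control lists had 0 and 2 peaks there and each list of the clone had 1, in 2 regions near the end of the gene. The region from 118395506 to 118395760, 2.4 kb before the gene end, was called in 697 control 2 and both libraries of the 697 clone, with folds of 4.58, 6.27 and 6.23, and was absent from 697 control 1. The other, from 118392619 to 118392906, was called only in 697 control 2, with a fold of 4.34.

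**Figure D1:**
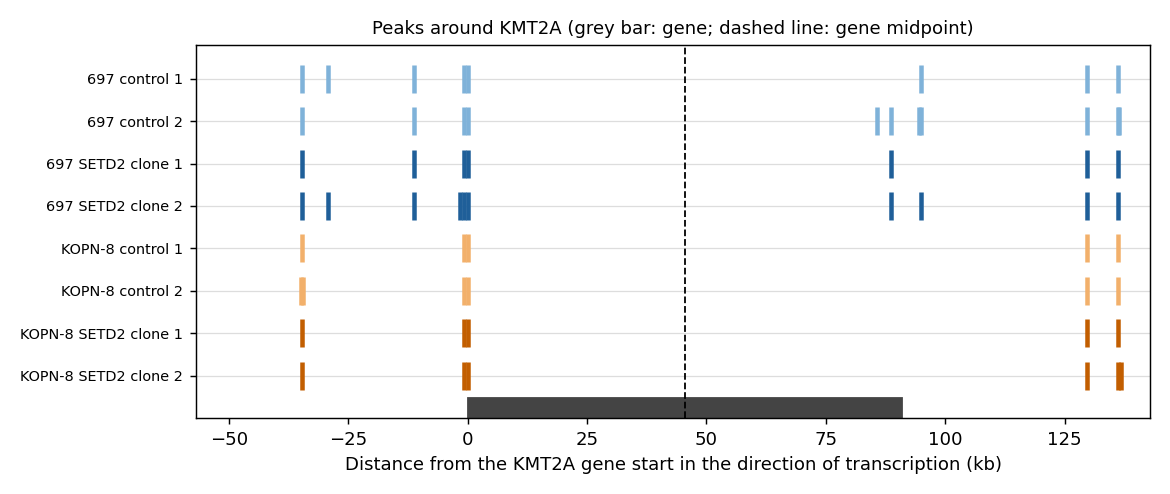
Peaks of each of the 8 libraries (rows) in the KMT2A window by distance from the gene start in kb. Each tick is the centre of 1 peak and is not drawn to peak width, the grey bar is the gene and the dashed line its midpoint. All libraries have ticks at the gene start, and the KOPN-8 rows are empty from there to beyond the 3′ end of the gene.

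Outside the gene the KMT2A window held 5 regions upstream and 5 downstream of it, of which 4 were called in all 8 libraries. On the upstream side the neighbouring protein-coding genes are ATP5MG, a subunit gene of the mitochondrial ATP synthase, and UBE4A, a ubiquitin ligase gene. On the downstream side they are TTC36, TMEM25, IFT46 and ARCN1, by their order in GRCh38. Besides the pair at the promoter, 3 regions were called in all 8 libraries: from 118271701 to 118272843 upstream (folds 7.07 to 8.53 in 697 and 7.02 to 9.54 in KOPN-8), and from 118436464 to 118436983 and from 118442847 to 118443628 downstream. The region 38.7 kb beyond the gene end had the highest fold of the window in 7 of 8 lists, and in KOPN-8 control 2 the region after it, at 9.47, was higher. It had folds of 11.4, 12.5, 11.4 and 18.0 in 697, at percentiles of 87.3 to 98.8, and of 8.91, 9.21, 11.6 and 10.7 in KOPN-8, at 77.1 to 87.2. In all, 5 of 13 regions were called in all 8 libraries, against 20.4% of all regions and 23.7% of those on chromosome 11.

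The region 11.3 kb upstream of the KMT2A start, from 118295509 to 118295897, was called in all 4 libraries of 697 and in 0 of 4 of KOPN-8. Its folds were 6.09 and 7.47 for 697 control cells and 8.84 and 8.24 for clone BM_B, at percentiles of 52.1 to 74.5. It was the only 1 of the 13 regions with this pattern, which 5.85% of all regions and 7.03% of those on chromosome 11 had. The converse pattern, all 4 KOPN-8 libraries and 0 of 4 697 libraries, was found in 0 of the 13, against 7.30% of all regions. A region from 118401722 to 118401972, 3.8 kb beyond the gene end, was called in both 697 controls and in 697 clone 2, with folds of 4.77, 4.10 and 6.68. A region 29.3 kb upstream, from 118277552 to 118277884, was called in 697 control 1 and 697 clone 2, with folds of 3.97 and 5.57. Of the last 3 regions, each in 1 library, 2 belonged to 697 (folds 2.66 and 3.13) and 1 to KOPN-8 clone 2 (3.88), so that 7 of the 13 regions were found only in 697 and 1 only in KOPN-8. Among all regions 32.2% were called in at least 1 library of 697 and in 0 of KOPN-8, and 28.3% the other way round, and on chromosome 11 the shares were 35% and 21.9%. Counting the weak one inside the gene, 4 of the 13 regions were called in 1 library, and 30.2% of all regions were.

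MLLT1 showed the opposite order of the lines, with more peaks in KOPN-8 and most of the difference inside the gene. The region over the gene start, on chromosome 19 from 6279632 to 6280419, was called in all 8 libraries. Its folds were 5.03 and 6.75 in 697 control libraries, 7.70 and 11.1 in clone BM_B, 10.5 and 9.48 in the KOPN-8 controls and 12.7 and 13.0 in the KOPN-8 clone. Within their lists these peaks lay at the percentiles 36.2 and 62.6, 66.0 and 85.1, 84.8 and 78.9, and 90.8 and 91.7 in the same order. The peak was 269, 340, 401 and 531 bp wide in 697 and 656, 646, 788 and 498 bp in KOPN-8. The controls of 697 lay below those of KOPN-8 in width and in rank, while 697 clone 2 overlapped KOPN-8 in both. These ranks come from lists of unequal length, and chromosome 19 as a whole took 1.46% and 1.56% of the peaks of the 697 controls, 1.99% and 2.01% of those of the 697 clone and 2.75% to 2.97% of those of KOPN-8, so the part of the whole chromosome in these differences was not tested.

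Inside MLLT1 697 had no peak other than the one at the gene start. Each of the 4 libraries of 697 held 1 peak that overlapped the gene, while the KOPN-8 controls had 2 and 4 such peaks and each list of its clone had 3. The region from 6218528 to 6218861 lies in the 3′ part, 8.7 kb before the gene's 3′ end, and was called in all 4 KOPN-8 libraries and in 0 of 4 of 697. Its folds were 6.12 and 6.03 in the KOPN-8 controls and 7.92 and 7.93 in the clone, at percentiles of 49.3 to 68.6. This was 1 of 8 regions of the window, and 7.30% of all regions and 10.5% of those on chromosome 19 had the pattern. The converse pattern was found in 0 of the 8, and on chromosome 19 only 0.868% of regions had it.

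The other 3 regions within MLLT1 were called in fewer KOPN-8 libraries. A region in the 5′ part, 22.0 kb into the gene from its start and from 6257789 to 6258138, was called in both libraries of the KOPN-8 clone, with folds of 5.68 and 6.69, and in neither KOPN-8 control nor any library of 697. A region 0.8 kb from the midpoint, from 6244000 to 6244331, and another from 6248709 to 6248921 were called only in KOPN-8 control 2, with folds of 5.47 and 4.69. In 697 the stretch without a peak between the gene start and the next region measured 75.9 kb, over almost the whole gene, and 8.30% of the stretches between regions of 697 were as long. It too was taken because it holds the midpoint, so the share understates how often a point lies in a stretch this long.

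**Figure D2:**
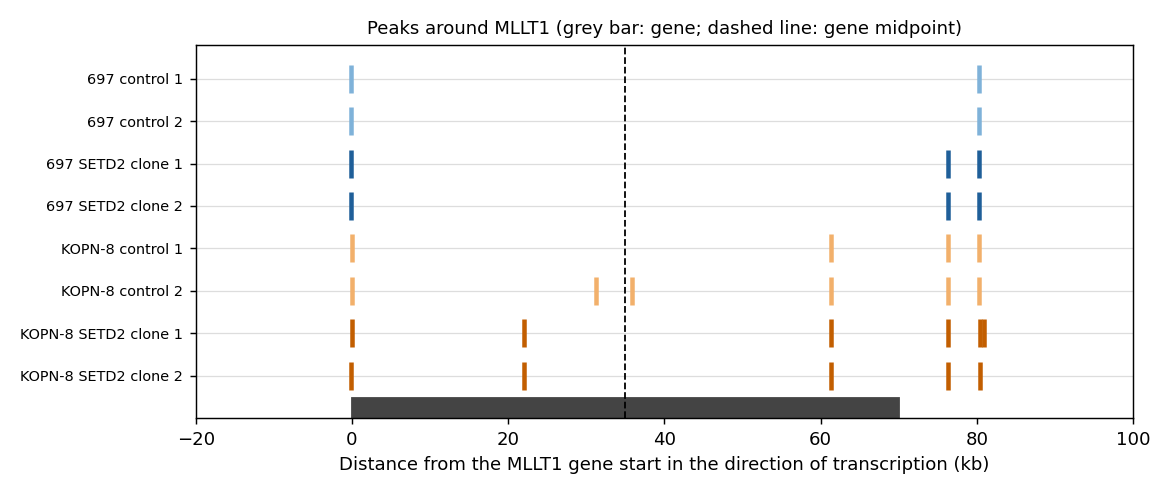
Peaks of each of the 8 libraries (rows) in the MLLT1 window by distance from the gene start in kb, in the direction of transcription. Each tick is the centre of 1 peak and is not drawn to peak width, the grey bar is the gene and the dashed line its midpoint. Ticks inside the gene away from its start appear only in the KOPN-8 rows, and 1 of these positions is filled in all 4 of them.

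Downstream of MLLT1, towards ACSBG2, an acyl-CoA synthetase gene, lay 3 regions. One of them, from 6199328 to 6200010, was called in all 8 libraries, with folds of 6.88, 7.95, 7.70 and 6.90 in 697 and 8.54, 9.32, 7.44 and 8.05 in KOPN-8. Together with the gene start this made 2 of 8 regions called in every library, against 26.3% on chromosome 19. A region 6.2 kb beyond the 3′ end of MLLT1, from 6203550 to 6203962, separated the arms of 697. It was absent from both 697 controls and called in both libraries of the 697 clone, with folds of 7.13 and 5.57, and it was present in all KOPN-8 libraries with folds of 7.59 and 6.33 for control cells and 7.76 and 6.68 for clone BA. The last region, from 6198992 to 6199191, was called only in KOPN-8 clone 1, with a fold of 3.25. In all, 5 of the 8 regions were found only in KOPN-8 and 0 only in 697, and on chromosome 19 the shares of regions were 39% and 8.92%.

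Counted by library, the KMT2A window held more peaks in 697 and the MLLT1 window more in KOPN-8. In the KMT2A window 697 control libraries had 8 and 11 peaks, 697 clone libraries 7 and 10, and both arms of KOPN-8 had 5 and 6. The 11 of 697 control 2 and the 6 of KOPN-8 control 2 each include 1 merged region called as 2 peaks. In the MLLT1 window the numbers were 2 and 2, 3 and 3, 4 and 6, and 6 and 5 in the same order. The lines did not overlap in either window. Counts were also taken per 10000 peaks of a list, which allows for lists of 57154 to 76495 peaks. Here n = 4 pools the 2 controls of a line with the 2 libraries of its clone, so the SD mixes the arms. On this scale the KMT2A window had 1.35 ± 0.191 peaks (SD, n = 4) in 697 and 0.831 ± 0.122 in KOPN-8. The MLLT1 window had 0.376 ± 0.0800 in 697 and 0.794 ± 0.167 in KOPN-8. Each difference, of -0.52 and 0.42 peaks per 10000, exceeded the SD of both lines and reached the smallest p that 4 against 4 libraries allow (two-sided exact permutation test, p = 0.0286), but with adjustment over the 4 tests between lines the p was 0.0571 for both, above the threshold of 0.05.

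The lines also differed over the whole of both chromosomes. Chromosome 11 took 5.54% to 5.81% of peaks in 697 and 4.90% to 5.07% in KOPN-8. Relative to 1000 peaks of chromosome 11 the KMT2A window still had 1.95 to 2.72 peaks in 697 and 1.45 to 1.89 in KOPN-8, without overlap (exact permutation, p = 0.0286, adjusted over 2 tests 0.0571). Relative to 1000 peaks of chromosome 19 the MLLT1 window had 1.83 to 2.40 peaks in 697 and 2.06 to 3.31 in KOPN-8, so the ranges overlapped, and the mean difference of 0.638 did not pass (exact permutation, p = 0.0857, adjusted 0.0857). This scaling was chosen after the data had been seen.

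**Figure D3:**
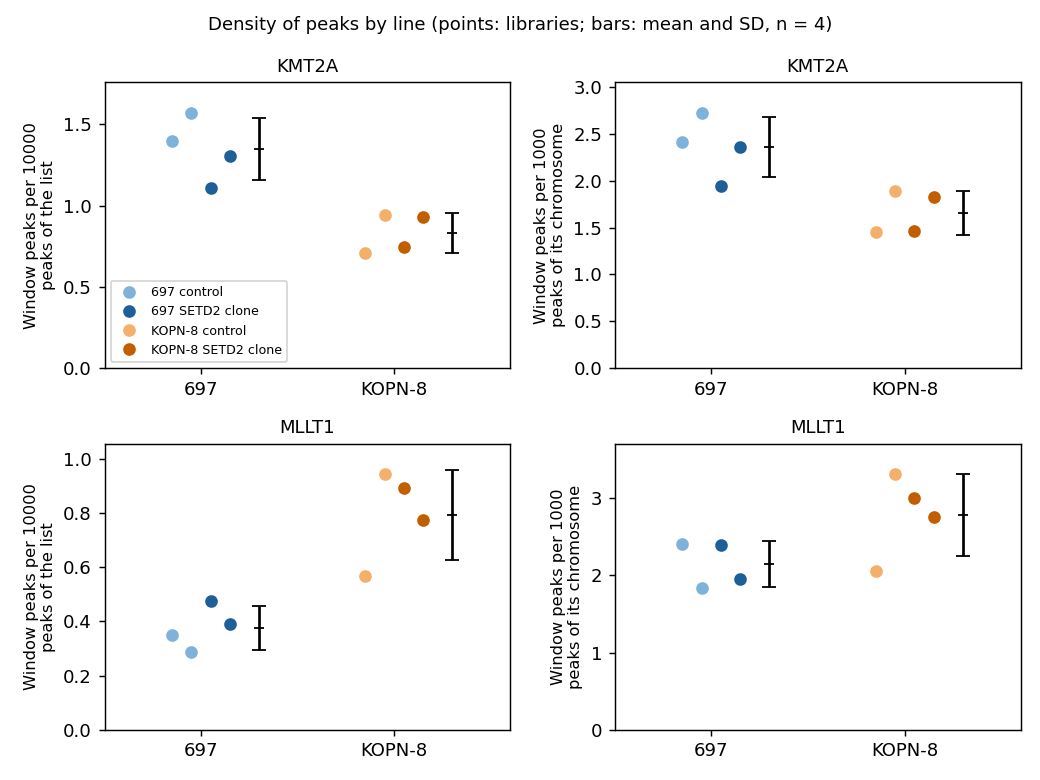
Peaks in the KMT2A window (upper row) and the MLLT1 window (lower row) per 10000 peaks of the list (left) and per 1000 peaks of the same chromosome (right). Points are libraries and bars give the mean and SD of the 4 libraries of a line. The lines are apart in all panels except that of MLLT1 relative to chromosome 19, where 2.06 in a KOPN-8 control lies within the range of 697.

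The comparison of the sides asked whether peaks of the fusion line were shifted towards the side before the midpoint. That side holds the 5′ part of KMT2A or the 3′ part of MLLT1. Each side also takes in sequence outside the gene, and all KOPN-8 peaks after the KMT2A midpoint lay beyond the gene. In the KMT2A window 3, 4, 3 and 3 peaks of KOPN-8 lay before the midpoint and 2, 2, 2 and 3 after it, and those of 697 were 5, 4, 4 and 6 before and 3, 7, 3 and 4 after. Of these, 2 peaks of KOPN-8 control 2 before the midpoint lay in 1 merged region, as did 2 peaks of 697 control 2 after it. The share after the midpoint was 46.0 ± 12.0% (SD, n = 4) in 697 and 40.8 ± 6.87% in KOPN-8. The difference of -5.17 percentage points was smaller than the SD of either line (two-sided exact permutation, p = 0.6, adjusted 0.6). 697 control 2, with 63.6%, stood highest, and without it the difference was 0.714. Counted by merged regions instead of peaks, with all libraries, the difference was -2.59 percentage points (exact permutation, p = 0.714, adjusted 0.714).

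In the MLLT1 window 3, 4, 4 and 3 peaks of KOPN-8 lay before the midpoint, on the side of the 3′ part, and 1, 2, 2 and 2 after it, against 1, 1, 2 and 2 before and 1, 1, 1 and 1 after in 697. The share after the midpoint was 41.7 ± 9.62% in 697 and 32.9 ± 6.14% in KOPN-8 (n = 4), a difference of -8.75 percentage points that lay below the SD of 697 (exact permutation, p = 0.286, adjusted 0.381). By covered bases the difference had the other sign, at 1.23 percentage points. The mean number of peaks was higher in KOPN-8 on both sides, at 3.5 against 1.5 before the midpoint and 1.75 against 1 after it, although KOPN-8 control 1 had 1 peak after it, like the libraries of 697.

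With only peaks that overlap the genes, the counts were between 1 and 4 per library. In MLLT1 all peaks of 697 lay after the midpoint, at the gene start, while in KOPN-8 50% to 66.7% did (exact permutation, p = 0.0286, adjusted 0.0381). Gene peaks per 10000 were 0.131 to 0.175 in 697 and 0.284 to 0.629 in KOPN-8 for MLLT1, and 0.175 to 0.428 and 0.142 to 0.157 for KMT2A (exact permutation, p = 0.0286 and adjusted 0.0381 for each). Across the alternatives tried, the adjusted p of either density between lines ranged from 0.0381 to 0.667 and that of the MLLT1 share from 0.0381 to 1. In KMT2A the share after the midpoint was 0% to 66.7% in 697 and 0% in each KOPN-8 library, a difference of -41.7 percentage points that did not pass (exact permutation, p = 0.143, adjusted 0.143). These adjusted values are over the 4 tests within the genes, of which 3 reached the smallest p, and the difference in KMT2A density, -0.145, was smaller than that over the window. The KMT2A density rests partly on list length, since 697 control 1 and every KOPN-8 library each had 1 peak in the gene. Relative to peaks of the same chromosome neither gene passed (exact permutation, p = 0.0857 for KMT2A and 0.0571 for MLLT1, adjusted 0.0857 for both).

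**Figure D4:**
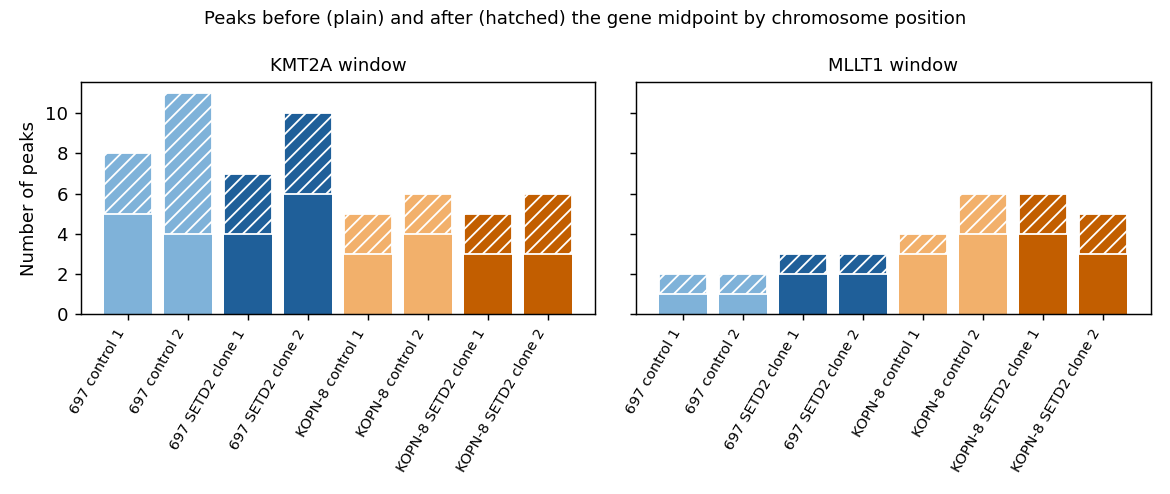
Number of peaks before (plain) and after (hatched) the gene midpoint, by chromosome position, in each library for the KMT2A window (left) and the MLLT1 window (right). KMT2A bars reach 7 to 11 in 697 and 5 to 6 in KOPN-8, and MLLT1 bars reach 2 to 3 in 697 and 4 to 6 in KOPN-8, with plain parts of 3 and 4 in KOPN-8.

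Regions of the 2 loci that differed between the SETD2 clones and their controls were counted beside the shares over all regions. The KMT2A window had 0 regions gained, that is called in both libraries of a clone and neither control, and 0 lost, in both lines. The MLLT1 window had 1 region gained in the 697 clone, the one 6.2 kb beyond the 3′ end, 1 gained in the KOPN-8 clone, the one in the 5′ part of the gene, and 0 lost in either. Among all regions 3.08% were gained and 1.32% lost in the 697 clone, and 2.45% were gained and 2.59% lost in the KOPN-8 clone. On chromosome 19 the 697 clone gained 7.42% of regions and lost 0.0789%, and the KOPN-8 clone gained 3.04% and lost 2.05%. On chromosome 11 the 697 clone gained 2.85% and lost 1.33%, and the KOPN-8 clone gained 2.29% and lost 2.04%. With shares this low and so few regions in the windows, the counts do not set the loci apart from other regions. Each count in the MLLT1 window rests on a single region. With 2 libraries against 2 the exact permutation test used here cannot give a p below 0.333. Window peaks per 10000 in the KMT2A window were 1.40 and 1.57 for 697 control cells and 1.11 and 1.31 for clone BM_B, and in the MLLT1 window 0.350 and 0.285 against 0.476 and 0.392. The arms did not overlap in either window, with differences of -0.275 and 0.117 (exact permutation, p = 0.333 and adjusted over 8 tests 0.889 for each). The numbers of KMT2A peaks did overlap, at 8 and 11 against 7 and 10. Relative to 1000 peaks of chromosome 19 the MLLT1 values overlapped too, at 2.40 and 1.83 against 2.39 and 1.95. Relative to chromosome 11 the KMT2A values stayed apart, at 2.41 and 2.72 against 1.95 and 2.36. In KOPN-8 the arms overlapped in both windows, at 0.710 and 0.944 against 0.743 and 0.928 for KMT2A and at 0.568 and 0.944 against 0.892 and 0.773 for MLLT1 (exact permutation, p = 1 for each). Counted by merged regions, the KOPN-8 clone minus its control was 0.0872 per 10000 in the KMT2A window (exact permutation, p = 0.667). Shares after the midpoint differed between the arms by between -16.7 and 8.33 percentage points (exact permutation, p from 0.333 to 1).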

How the data were processed

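The files are 8 peak lists, 1 per library. The submitters' processing notes name Bowtie2, hg19 and MACS2, with no version, setting or treatment of duplicates stated in the labels. The deposited value of a peak stands in a column without a header and was read as a fold over background, a linear ratio. It is never below 1, which alone does not show that it is a fold. Read depth is unknown. Windows and gene bounds, to the nearest kb, came with the choice of loci, which, like the lists and tests, was made with earlier results of these data known. Peaks were placed by their centre. Regions were named by a rule: those at gene starts, those with line or arm patterns, and those called in all 8 libraries; here all are described. Exact permutation tests used Python 3.11.15 and NumPy 2.4.6, with Benjamini-Hochberg adjustment over 4 tests between lines and 8 between arms. Merging and testing were checked on simulated lists. RefSeq (GRCh38.p14) gave promoters, strands and neighbours; both genes matched. No hg19 annotation was used, so the edit of SETD2, B cell markers and related genes were not analysed here. Alternatives were the strongest 50% of each list, lists of equal length, gene body only, covered bases, 50% coverage of a region, each library left out, single arms and a replicate block; scaling by chromosome and counting regions were added after seeing the data.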

Additional observations from a re-analysis of the deposited data

How the results depend on the processing

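The direction of the difference between lines in peaks per 10000 held for both windows under every alternative run. The KMT2A difference ranged from -0.594 to -0.442 and the MLLT1 difference from 0.368 to 0.494 with 1 library left out. With the gene body only, these differences were -0.145 and 0.304 and passed the threshold, as did the MLLT1 share after the midpoint, at -41.7 percentage points, while the KMT2A share, also at -41.7, did not (exact permutation, adjusted p = 0.143). The shares after the midpoint were not stable in sign. For KMT2A the line difference became 10.8 in the strongest 50% of each list and 3.57 with clones only, and ranged from -8.22 to 0.714 with 1 library left out. For MLLT1 it became 1.23 by covered bases and 3.33 with clones only, and ranged from -11.5 to -5.97. The cause was not tested.

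Between arms, none of which could be called, the strongest 50% turned the sign for the 697 clone in the KMT2A share (15), KMT2A peaks per 10000 (0.251) and the MLLT1 share (16.7). Gene body only did so for the 697 KMT2A share (16.7) and for MLLT1 peaks per 10000 in 697 (-0.0141) and KOPN-8 (-0.00169). With 1 library left out the 697 KMT2A share ranged from -22.2 to 3.93, and KOPN-8 peaks per 10000 from -0.108 to 0.125 for KMT2A and from -0.111 to 0.264 for MLLT1.

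In the strongest 50% of each list 3 KMT2A regions and 1 MLLT1 region were called in all 8 libraries, 0 MLLT1 regions had the KOPN-8 pattern, 0 were gained in either clone, and 1 KMT2A region was gained in the 697 clone. With peaks covering 50% of a region 1 MLLT1 region was called in all 8 libraries and 2 were gained in the 697 clone, the second being the gene start. With 1 library left out the 697 pattern at KMT2A ranged from 1 to 2 regions (2 without 697 control 1 or 697 clone 1), KMT2A regions gained from 0 to 1 in each clone and lost from 0 to 2 in the 697 clone, and MLLT1 regions gained from 1 to 2 and lost from 0 to 2 in the KOPN-8 clone.

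The replicate numbers left little trace across the arms of a line. Over all regions the correlation of the replicate differences was 0.0235 between the arms of 697 and 0.000597 between those of KOPN-8. Such values cannot show whether libraries of the same number shared a culture or batch, which the labels do not state. With a replicate block the line differences in peaks per 10000 stayed at -0.516 and 0.418, with an exact permutation p of 0.0556, the smallest it allows, and no call changed. Depth is unknown, so a peak that is missing from a list may lie below its detection limit.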
